A study of Mus musculus with 6 samples.

Results

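Axon guidance ligands and receptors were followed in mouse embryonic fibroblasts (MEFs) after acute knockdown of *Yme1l* by siRNA, beside control cultures. The genes were included by name: the semaphorins of classes 3 to 7, the plexins, the neuropilins, the ephrins and Eph receptors, the SLITs and ROBOs, the netrins and the UNC5 receptors. This list was chosen with earlier results of these data known. Of the 51499 loci in the count table, 68 carried such a name, for 67 genes, since *Epha5* was listed at 2 loci. Reads were frequent enough to test 55 of the 68 loci, among 14499 tested loci in all. The 13 loci that were too low to test never exceeded 17 counts in a library, and 5 of them (both *Epha5* loci, *Ephb1*, *Unc5d* and *Robo4*) had no count in any of the 6 libraries.

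The series compared WT MEFs 72 h after transfection with control siRNA (Scr) or with Yme1l siRNA, and RNA-Seq was performed on 3 cultures per group. YME1L is an ATP-dependent protease of the inner mitochondrial membrane, and the study asked how its loss alters gene expression and innate immune signalling. Both groups are WT MEFs, and the methods describe the WT MEFs of the study as carrying floxed but intact *Yme1l* alleles and as obtained by expanding individual clones after Cre transduction. The sample labels describe 3T3 immortalization, whereas the methods name SV40 large T antigen, and either way the cells were immortalized rather than primary fibroblasts.

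Semaphorins, ephrins, SLITs and netrins are ligands that steer growing axons and migrating cells, either secreted or bound to the membrane. Secreted class 3 semaphorins mostly signal through a neuropilin that binds the ligand and an A-type plexin that carries the signal, while most other semaphorins bind plexins directly. Ephrins stay on the cell surface and activate Eph receptor tyrosine kinases on neighbouring cells, with signals running in both directions. SLITs repel cells through ROBO receptors, and netrins attract or repel them through DCC and UNC5 receptors. In fibroblasts these proteins are known for their influence on adhesion, spreading, contact repulsion and the cytoskeleton.

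*Yme1l1*, the gene targeted by the siRNA, was measured first. Its level in CPM (counts relative to the TMM-scaled library size) was 170, 171 and 171 in Scr cultures and 31.6, 23.4 and 45 in Yme1l siRNA cultures, a log2 fold change of -2.36 (SE 0.20, adjusted p = 3.87e-05 by edgeR). The libraries held 37260605 to 45205207 counts, of which mtDNA loci took 4.11, 3.92 and 2.2% in Scr and 2.0, 2.14 and 2.1% in Yme1l siRNA libraries. With these loci removed, 18 guidance genes rose and 24 fell, as with them. Of 10 fibroblast markers 9 could be tested and 8 fell, and their summed level was 34100 to 41400 CPM in Scr and 18400 to 22800 CPM in Yme1l siRNA cultures, whereas *Thy1* had at most 3 counts everywhere. Markers of other cell types summed to far less, with 162 to 178 against 241 to 254 CPM for 5 macrophage genes (*Ptprc*, *Adgre1* and *Cx3cr1* at most 3 counts) and 3.79 to 4.08 against 5.68 to 7.85 CPM for 6 endothelial genes (*Emcn* and *Tie1* at most 3 counts). The 5 neuronal genes summed to 0.485 to 1.09 against 0.0949 to 0.203 CPM (*Rbfox3*, *Snap25* and *Elavl4* at most 3 counts), and the 5 epithelial genes to 0.0924 to 0.194 against 0.807 to 1.33 CPM (*Cldn4* at most 3 counts). Of those that could be tested, 1 macrophage gene (*Csf1r*, log2 fold change 0.74), 2 endothelial genes (*Tek* and *Kdr*) and 1 epithelial gene (*Krt8*) rose, and 1 neuronal gene (*Stmn2*) fell. Mean levels in Scr and Yme1l siRNA cultures were 0.162 and 0.953 CPM for *Kdr*, 0.0248 and 0.6 for *Krt8*, and 0.445 and 0.00751 for *Stmn2*. Each of these 3 genes was low in 1 group and could be tested only through the group where it was high. The part that these shifts play in the results below was not tested.

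Among the 55 tested guidance genes, 18 (32.7%) rose and 24 (43.6%) fell upon *Yme1l* knockdown, and 13 were not called at an adjusted p of 0.05. The knockdown moved much of the transcriptome, with 28.4% of all tested loci higher and 29.6% lower by the same criterion, and the guidance genes are to be read against these shares. A change of at least 2-fold was called for 7 of the 55 genes upwards and 11 downwards, and the corresponding shares of all tested loci were 8.18% and 7.28%. These counts include 4 genes that passed the filter on low counts through 1 group alone, *Epha8*, *Plxnc1* and *Unc5a* upwards and *Epha1* downwards. They make up 3 of the 7 genes at least 2-fold higher and 1 of the 11 at least 2-fold lower, so the 2-fold counts rest in part on that filter. Without these 4 genes, 15 of 51 rose and 23 fell at an adjusted p of 0.05. The median log2 fold change was -0.12 for the guidance genes and 0.01 for all tested loci, and the median size of the change was 0.74 against 0.42. Values of the 2 groups did not overlap for 43 of the 55 genes, and the same held for 65.4% of all tested loci. In bulk RNA, fewer cells that express a gene and less RNA per cell cannot be told apart.

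By role, of the 31 tested ligands 14 (45.2%) rose and 11 (35.5%) fell, with a median log2 fold change of 0.27. Of the 24 tested receptors and co-receptors 4 (16.7%) rose and 13 (54.2%) fell, with a median of -0.39. These counts, and the counts by family below, stand beside 28.4% higher and 29.6% lower over all tested loci. Of the 4 receptors that rose, *Epha8*, *Plxnc1* and *Unc5a* were tested only because the Yme1l siRNA libraries passed the filter on low counts, just as *Epha1*, which fell, was tested through the Scr libraries alone. Among the other 20 receptors and co-receptors, *Epha2* was the one that rose, and 12 fell. Leaving out single libraries cost the call of 4 ligands that rose (*Sema3d*, *Sema4b*, *Sema4f* and *Sema5a*) and of *Efnb1*, which fell. Among receptors it cost that of *Plxnc1*, which rose, and of *Plxna4* and *Epha7*, which fell. No test of the difference between ligands and receptors was made.

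**Figure D1:**
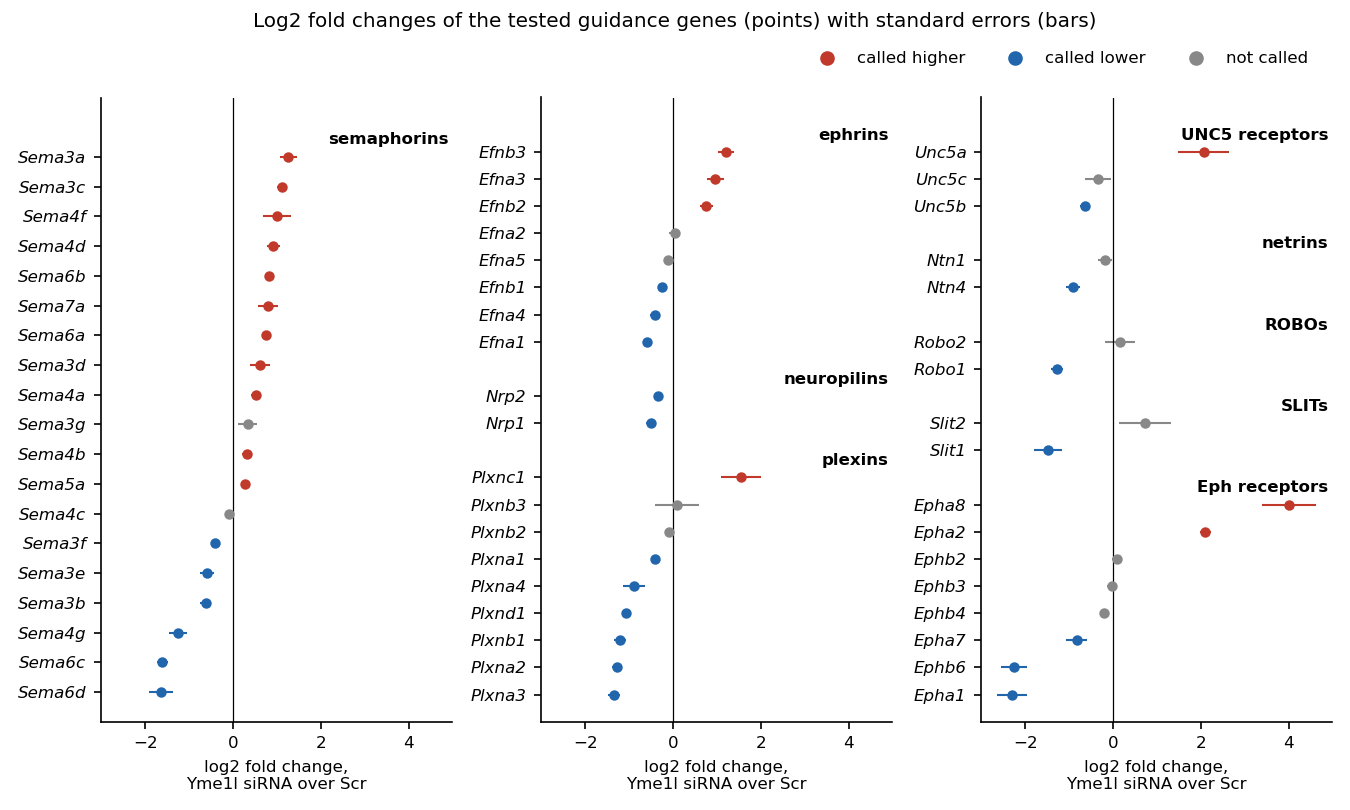
Log2 fold change of each tested guidance gene, Yme1l siRNA over Scr (points), with its standard error (bars), grouped by family. Red points passed the edgeR test upwards, blue points downwards, and grey points were not called. Most semaphorins lie to the right of 0 and most plexins to the left, and the values run from -2.30 (*Epha1*) to 4.0 (*Epha8*, nearly absent from Scr).

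To set genes side by side, levels were divided by exon length (CPM per kb), taken over all annotated exons of a gene together. In Scr cultures, the family of guidance genes was led by the plexin *Plxnb2*, at 129 ± 4.50 CPM per kb (SD, n = 3), followed by the netrin *Ntn1* (57.4 ± 1.65), the ephrin *Efna1* (45.7 ± 5.08) and the Eph receptor *Ephb4* (27.9 ± 1.99). *Plxna1* (25.3 ± 2.29), *Plxnd1* (21.9 ± 1.80) and *Sema3f* (16.8 ± 1.24) came next on the same scale. The ranges of *Ephb4* and *Plxna1* overlapped, as did those of *Plxna1* and *Plxnd1*, so that the order of these neighbours is not fixed, while the ranges of the first 4 genes were separate from each other. Ranges cover the spread between cultures. They do not cover the length of the transcripts that were expressed, which can be shorter than all exons together. In all, 9 guidance genes reached 10 CPM per kb and 37 reached 1 CPM per kb in Scr.

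After *Yme1l* knockdown the same 3 genes led, with *Plxnb2* at 122 ± 5.02, *Ntn1* at 50.7 ± 11.8 and *Efna1* at 30.4 ± 1.49 CPM per kb. *Epha2* moved up to the fourth place, from 6.37 to 27.4 CPM per kb on average, and its range overlapped that of the next gene, *Ephb4*, and lay just below that of *Efna1*. *Plxnb2* took 66.6 to 70.5% of the summed plexin level per length in Scr cultures and 78.0 to 78.9% in Yme1l siRNA cultures, in which 6 other plexins were lower. *Ephb4* took 45.4 to 52.0% of the summed Eph receptor level per length in Scr and 35.5 to 36.5% after knockdown.

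**Figure D2:**
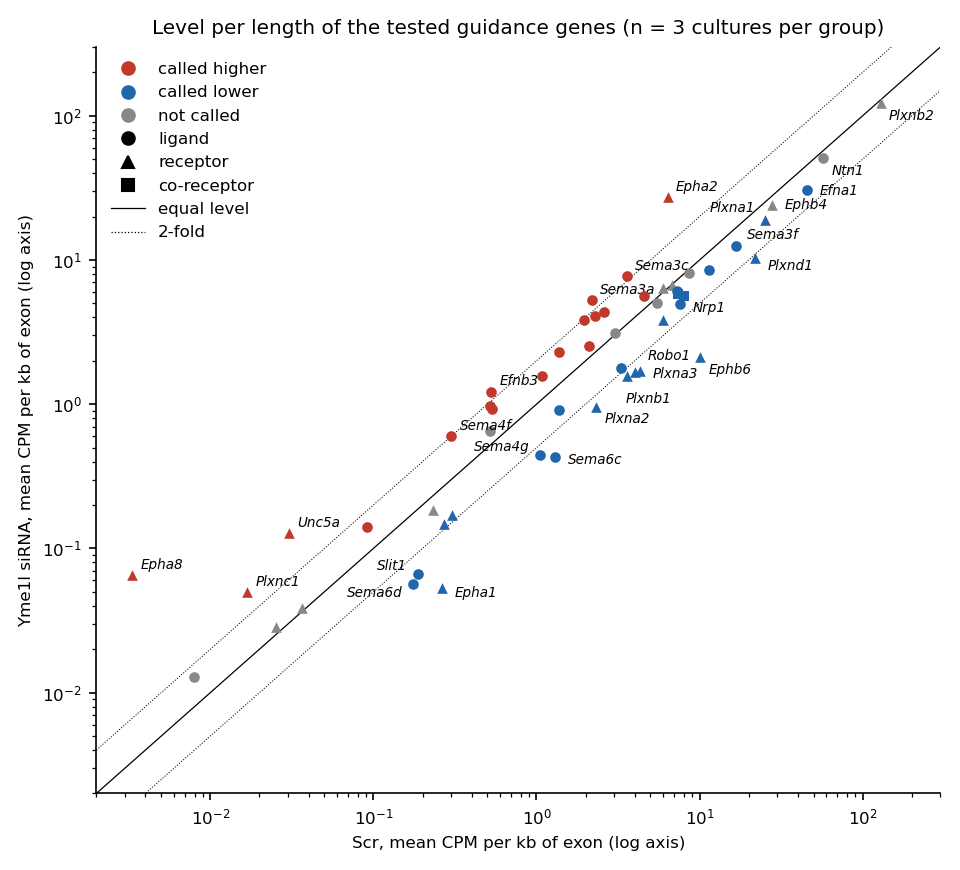
Mean level per length (CPM per kb of exon, log axes) in Scr (horizontal) and Yme1l siRNA cultures (vertical), n = 3 each, with ligands as circles, receptors as triangles and co-receptors as squares, coloured by call. The solid line marks equal levels and the dotted lines a 2-fold difference; *Epha2* lies above the 2-fold band and *Ephb6*, *Plxnd1*, *Robo1*, *Plxna2*, *Plxna3* and *Plxnb1* lie below it among the better expressed receptors, while *Plxnb2* and *Ntn1* stay near the line.

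Among the semaphorins, 19 of 20 genes were tested, 11 (57.9%) rose and 6 (31.6%) fell, beside 28.4% and 29.6% of all tested loci. Of those that rose, *Sema3d*, *Sema4b*, *Sema4f* and *Sema5a* lost their call in at least 1 fit that left out a library, whereas all that fell kept theirs. The secreted class 3 was split, with 3 genes higher, 3 lower and 1 not called. *Sema3a* (chromosome 5, 13125414 to 13602565), the class 3 semaphorin best known for collapsing growth cones through NRP1 and A-type plexins, was at 31.7, 30.7 and 28.5 CPM in Scr cultures and at 85.4, 83.8 and 48.9 CPM in Yme1l siRNA cultures. All knockdown cultures lay above all Scr cultures, although replicate 3 rose less than the others. The log2 fold change was 1.26 (SE 0.19, adjusted p = 0.000633). A stretch of 340 bases of *Sema3a* is 98.8% identical to the gene model *Gm43431*, and reads from this stretch could have been assigned to either.

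*Sema3c* (chromosome 5, 17574281 to 17730268), a secreted ligand with a role in the cardiac outflow tract, had 24.8, 24.0 and 27.7 CPM in Scr cultures and 64.3, 46.4 and 54.2 CPM after knockdown. The groups were well separated, and the log2 fold change was 1.11 (SE 0.12, adjusted p = 0.000111). *Sema3f* (chromosome 9, 107681500 to 107710475), an NRP2 ligand and the semaphorin with the highest level per length, went the other way, with 94.6, 84.2 and 82.9 CPM in Scr and 67.0, 73.0 and 57.1 CPM in Yme1l siRNA cultures. It fell by 0.41 on the log2 scale (SE 0.10, adjusted p = 0.00796), and again no values overlapped. *Sema3b* (-0.62) and *Sema3e* (-0.59), the ligand of plexin D1, also fell on the log2 scale, *Sema3d* rose by 0.62, and *Sema3g* was not called (0.33).

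The membrane-bound semaphorins of class 4 rose in 4 of 6 tested cases, on the log2 scale by 0.92 for *Sema4d*, which binds plexin B1, 0.53 for *Sema4a*, 0.31 for *Sema4b* and 1.00 for *Sema4f*. *Sema4f* was the one called guidance gene whose groups overlapped, with 1.34 to 1.77 CPM in Scr and 1.73 to 4.28 CPM after knockdown. *Sema4c* was not called (-0.10), and *Sema4g* (chromosome 19, 44989101 to 45003397) fell. It had 11.7, 8.76 and 6.92 CPM in Scr and 3.61, 4.28 and 3.63 CPM in Yme1l siRNA cultures. Each knockdown culture was lower than each Scr culture, with a log2 fold change of -1.25 (SE 0.20, adjusted p = 0.000858).

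Class 6, transmembrane semaphorins that bind A-type plexins, was divided as well. *Sema6a* rose by 0.74 and *Sema6b* by 0.83 on the log2 scale, whereas *Sema6c* and *Sema6d* were among the guidance genes that fell most. *Sema6c* (chromosome 3, 95160457 to 95174024), the called semaphorin with the smallest adjusted p, had 7.69, 7.54 and 7.96 CPM in Scr cultures and 2.37, 2.53 and 2.71 CPM in Yme1l siRNA cultures. The cultures of each group were close together and the groups far apart, and the log2 fold change was -1.61 (SE 0.13, adjusted p = 2.94e-05). *Sema6d* (chromosome 2, 124089969 to 124667770) was low, at 1.78, 2.33 and 1.42 CPM in Scr and 0.473, 0.621 and 0.688 CPM after knockdown, without overlap. Its log2 fold change was -1.63 (SE 0.27, adjusted p = 0.00105). *Sema5a* (0.27) and the membrane-anchored *Sema7a* (0.80) completed the list of semaphorins that rose, and *Sema5b* was too low to be tested.

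Among the receptors of the semaphorins, 6 of 9 plexins and both neuropilins fell, beside 29.6% of all tested loci. All 4 A-type plexins, the signalling partners of neuropilins, were lower after knockdown. *Plxna2* (chromosome 1, 194618218 to 194816869) had 37.5, 36.6 and 45.6 CPM in Scr cultures and 18.0, 15.3 and 16.3 CPM in Yme1l siRNA cultures. No values overlapped, and the log2 fold change was -1.27 (SE 0.11, adjusted p = 3.47e-05). *Plxna3* (chromosome X, 74329066 to 74344689) went from 40.3, 33.2 and 28.1 CPM to 14.4, 13.3 and 12.4 CPM. Here too every knockdown culture was below every Scr culture, by -1.34 on the log2 scale (SE 0.13, adjusted p = 7.14e-05). *Plxna1* (-0.42) and *Plxna4* (-0.88) fell less.

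*Plxnd1* (chromosome 6, 115954811 to 115995005), the receptor of SEMA3E and a regulator of vascular patterning, was the called plexin with the smallest adjusted p. It had 153, 152 and 175 CPM in Scr cultures and 71.3, 81.1 and 76.0 CPM in Yme1l siRNA cultures. The distance between the groups was several times the spread within them, and the log2 fold change was -1.07 (SE 0.09, adjusted p = 2.68e-05). *Plxnb1* (chromosome 9, 109095389 to 109119917), the receptor of SEMA4D, was at 35.4, 33.3 and 35.3 CPM in Scr and at 14.2, 18.2 and 12.7 CPM after knockdown. This gene fell by 1.21 on the log2 scale (SE 0.13, adjusted p = 9.81e-05). It shares 261 identical bases with *Gm7628* on the other strand, and if the strand was not used in counting, reads of the pair cannot be told apart.

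*Plxnb2* (chromosome 15, 89155549 to 89180788), the most abundant guidance gene per length, was not called. Its level was 1020, 1010 and 958 CPM in Scr cultures and 987, 918 and 921 CPM in Yme1l siRNA cultures. The groups overlapped, with a log2 fold change of -0.08 (SE 0.07, adjusted p = 0.363). *Plxnb3* was barely expressed and was not called either. *Plxnc1* (chromosome 10, 94790866 to 94944835), the receptor of SEMA7A, was the plexin that rose, but from 3, 5 and 9 counts in Scr libraries to 18, 23 and 13 counts in Yme1l siRNA libraries. These low counts did not overlap, and the log2 fold change was 1.55 (SE 0.45, adjusted p = 0.0169). The gene was tested through the Yme1l siRNA libraries alone, and 115 bases of its exons overlap *Gm48718* on the same strand.

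The co-receptor *Nrp1* (chromosome 8, 128358604 to 128503363), which also binds VEGF, had 84.3, 72.1 and 80.8 CPM in Scr cultures and 62.4, 48.9 and 55.3 CPM in Yme1l siRNA cultures. It fell by 0.51 on the log2 scale (SE 0.10, adjusted p = 0.00268) and its groups were separate. *Nrp2*, with 82.9 to 96.8 CPM in Scr and 65.4 to 70.4 CPM after knockdown, fell by 0.35 (SE 0.08, adjusted p = 0.00569). Thus *Sema3a* and *Sema3c* transcripts rose in the same cultures in which transcripts of both neuropilins and of all A-type plexins were lower, while *Sema3f* fell together with its co-receptor *Nrp2*.

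**Figure D3:**
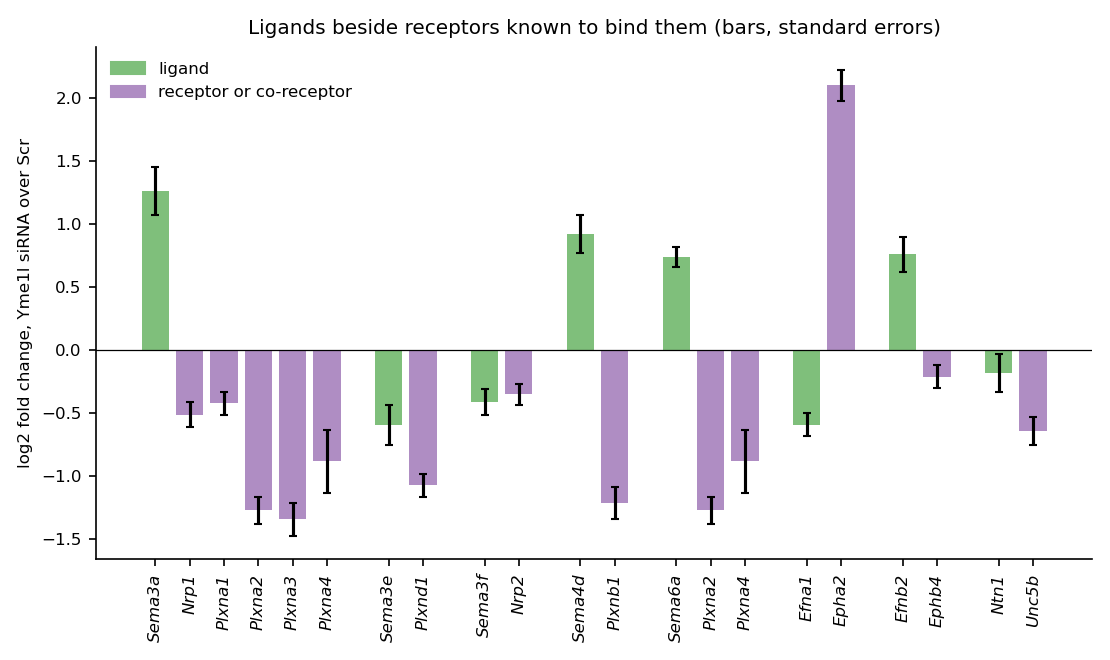
Log2 fold changes (bars, Yme1l siRNA over Scr) with standard errors of 8 ligands (green), each followed by receptors or co-receptors known to bind them (purple). The pairs were chosen with the values known and cover a part of the known binding partners. *Sema3a*, *Sema4d*, *Sema6a* and *Efnb2* lie above 0 beside receptors below 0, and *Efna1* lies below 0 beside *Epha2* at 2.10. *Sema3e* with *Plxnd1*, *Sema3f* with *Nrp2* and *Ntn1* with *Unc5b* all lie below 0. *Ntn1* and *Ephb4* were not called.

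The Eph receptors and ephrins held both the rise with the smallest adjusted p and the deepest falls among the tested guidance genes. *Epha2* (chromosome 4, 141301240 to 141329384), a receptor of A-type ephrins with roles in epithelial and tumour cells, had 28.0, 26.4 and 35.0 CPM in Scr cultures and 132, 136 and 117 CPM in Yme1l siRNA cultures. Every knockdown culture was at more than 3 times the level of any Scr culture, and the log2 fold change was 2.10 (SE 0.12, adjusted p = 7.43e-06). *Epha8* (chromosome 4, 136929419 to 136956816), a receptor of A-type ephrins studied mainly in the developing brain, had 1, 0 and 1 counts in Scr libraries and 16, 12 and 12 counts in Yme1l siRNA libraries. Against a limit of 3 counts per Scr library, it was at least 4.12-fold higher after knockdown (adjusted p = 0.000716), and it remained a rare transcript.

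*Ephb6* (chromosome 6, 41605482 to 41620509), an Eph receptor without kinase activity, was at 45.6, 42.4 and 26.6 CPM in Scr cultures and at 8.77, 10.4 and 4.86 CPM in Yme1l siRNA cultures. The spread within each group was wide, but the groups stayed apart, with a log2 fold change of -2.25 (SE 0.29, adjusted p = 0.000253). *Epha1* (chromosome 6, 42358487 to 42373268), another receptor of A-type ephrins, had 55, 39 and 32 counts in Scr libraries and 11, 6 and 10 counts after knockdown. It fell by 2.30 on the log2 scale (SE 0.34, adjusted p = 0.00059) and showed no overlap, but it was tested through the Scr libraries alone. Its exons overlap those of *Zyx* on the other strand, and 455 bases are 95.8% identical to *2010010A06Rik*, so that its counts are uncertain.

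Of the other tested Eph receptors, 1 fell and 3 were not called. *Ephb4* (chromosome 5, 137350109 to 137378669), the receptor of ephrin B2 and the Eph receptor with the highest level per length in Scr, had 124, 124 and 140 CPM in Scr cultures and 113, 121 and 101 CPM in Yme1l siRNA cultures. Although these values did not overlap, the gene was not called (log2 fold change -0.21, SE 0.09, adjusted p = 0.0731). It was called without Yme1l siRNA replicate 2 (-0.26, adjusted p = 0.0373). *Ephb2* (0.08) and *Ephb3* (-0.02) were not called, *Epha7* fell by 0.83 on the log2 scale, and *Epha3*, *Epha4*, *Epha6* and *Epha10* were too low to be tested.

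Of the 8 ephrins, 3 (37.5%) rose, 3 (37.5%) fell and 2 were not called, beside 28.4% higher and 29.6% lower over all tested loci. *Efna1* (chromosome 3, 89271733 to 89281142), a ligand of EPHA2 and the ephrin with the highest level per length, had 84.6, 92.4 and 73.9 CPM in Scr cultures and 53.4, 58.7 and 54.9 CPM in Yme1l siRNA cultures. It fell by 0.59 on the log2 scale (SE 0.09, adjusted p = 0.000723), without overlap between the groups. *Efnb3* (chromosome 11, 69554092 to 69560205), a transmembrane ephrin of the midline of the nervous system, was low, with 1.5, 1.58 and 1.97 CPM in Scr cultures and 3.99, 4.23 and 3.46 CPM after knockdown. All knockdown cultures were higher than all Scr cultures, and the log2 fold change was 1.21 (SE 0.18, adjusted p = 0.000636), the smallest adjusted p among the ephrins. *Efnb2*, the ligand of EPHB4 in the separation of arteries and veins, rose by 0.76, from 16.7 to 18.5 CPM in Scr to 22.9 to 33.7 CPM, and *Efna3* rose by 0.96. *Efna4* (-0.42) and *Efnb1* (-0.25) fell, and *Efna2* (0.04) and *Efna5* (-0.12) were not called.

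**Figure D4:**
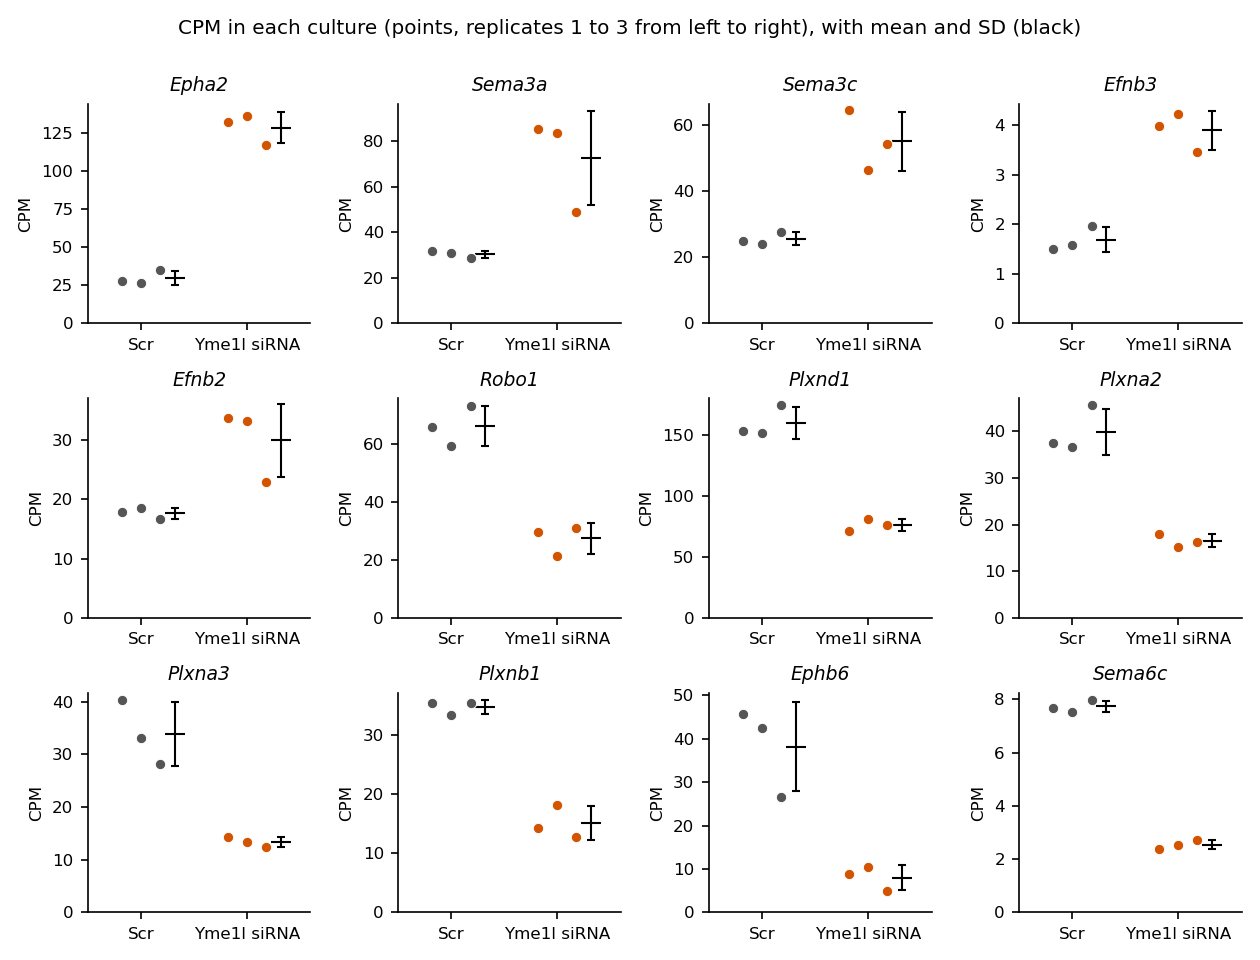
CPM of 12 guidance genes in each of the 3 Scr cultures (grey) and the 3 Yme1l siRNA cultures (orange), with mean and SD in black and each vertical axis starting at 0. In all 12 panels the groups do not overlap; the upper row and *Efnb2* lie higher and the other genes lower after knockdown.

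Of the SLITs, only *Slit1* and *Slit2* could be tested, and both were weakly expressed. *Slit1* (chromosome 19, 41600257 to 41743665), a secreted repellent, had 40, 52 and 40 counts in Scr libraries and 22, 17 and 12 counts in Yme1l siRNA libraries. The groups did not overlap, and the log2 fold change was -1.48 (SE 0.31, adjusted p = 0.00372). *Slit2* was not called (0.72, SE 0.59, adjusted p = 0.322). *Robo1* (chromosome 16, 72308306 to 73046095), a receptor of SLITs, carried 99.1 to 99.6% of the summed ROBO level per length in Scr. It was at 65.7, 59.4 and 73.1 CPM in Scr cultures and at 29.6, 21.4 and 31.1 CPM in Yme1l siRNA cultures. This clear separation corresponded to a log2 fold change of -1.27 (SE 0.14, adjusted p = 0.000123). *Robo2* was rare and not called (0.16), and *Slit3*, *Robo3* and *Robo4* were not tested.

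Netrin 1 transcripts were abundant. *Ntn1* (chromosome 11, 68209364 to 68400823), the founding attractant for commissural axons, had 372, 353 and 356 CPM in Scr cultures and 311, 249 and 396 CPM in Yme1l siRNA cultures. The knockdown cultures lay on both sides of the Scr cultures, and the gene was not called (log2 fold change -0.18, SE 0.15, adjusted p = 0.324). Without Yme1l siRNA replicate 3 it was called lower (-0.37, adjusted p = 0.0125). *Ntn4* (chromosome 10, 93640681 to 93747207), a netrin that binds laminin, had 12, 12.7 and 12.5 CPM in Scr and 8.16, 5.89 and 5.77 CPM after knockdown. It fell by 0.91 on the log2 scale (SE 0.15, adjusted p = 0.000953), and no values overlapped.

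*Unc5b* (chromosome 10, 60762593 to 60831581), a netrin receptor of the vasculature that can trigger cell death when no ligand is bound, was the UNC5 gene with the highest level per length. It had 42.7, 35.9 and 32.8 CPM in Scr cultures and 25.3, 23.7 and 22.5 CPM in Yme1l siRNA cultures. All knockdown cultures were lower, with a log2 fold change of -0.64 (SE 0.11, adjusted p = 0.00102). *Unc5a* (chromosome 13, 54949411 to 55006018), a neuronal member of the family, had 6, 7 and 2 counts in Scr libraries and 22, 36 and 11 counts in Yme1l siRNA libraries. It rose by 2.07 on the log2 scale (SE 0.58, adjusted p = 0.0141) from these few counts, and its exons overlap *Hk3* on the other strand. *Unc5c* was not called (-0.34), and *Ntn5* and *Unc5d* were too low to be tested. So was the netrin receptor gene *Dcc*, with 0, 0 and 2 counts in Scr libraries and 0, 1 and 2 counts in Yme1l siRNA libraries.

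Calls near the threshold depended on single libraries. Of the 42 called genes, 34 kept their call in each fit that left out 1 library, and 8 lost it in at least 1. *Efnb1* lost it without Scr replicate 1 or Yme1l siRNA replicate 1 (adjusted p up to 0.112), *Plxna4* without the same libraries (up to 0.058) and *Epha7* without Scr replicate 3 (0.0515). *Plxnc1* lost it without Scr replicate 1 or 2 or Yme1l siRNA replicate 2 (up to 0.0641) and *Sema5a* without Scr replicate 2 or 3 or Yme1l siRNA replicate 1 (up to 0.13). *Sema4b* lost it without any of the Scr libraries (up to 0.109) and without Yme1l siRNA replicate 2, where its log2 fold change was 0.19. *Sema4f* kept its call only without Yme1l siRNA replicate 3 and *Sema3d* only without Scr replicate 2, with adjusted p-values of up to 0.0887 and 0.163 in the other fits. Values of the 41 called genes without overlap gave p = 0.1 in the two-sided exact permutation test, the smallest that 3 against 3 cultures allow.

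The proximal promoters of 4 guidance genes, 2 that rose and 2 that fell, are shown as examples of a receptor kinase, a ligand and 2 further receptors whose groups were well apart, and were chosen with these values known. They are the 250 bases upstream of a RefSeq start in GRCm38.p6, printed on the strand of the gene, with capitals marking the word GGAATG or its complement CATTCC, the core of the site bound by TEAD factors. *Epha2* lies at chr4:141300971-141301220 on the plus strand, *Sema3a* at chr5:13396534-13396783 on the plus strand, *Robo1* at chr16:72662899-72663148 on the plus strand and *Plxnd1* at chr6:115995006-115995255 on the minus strand. For *Sema3a* and *Robo1*, the window lies in an intron of longer transcripts of the gene.
Epha2: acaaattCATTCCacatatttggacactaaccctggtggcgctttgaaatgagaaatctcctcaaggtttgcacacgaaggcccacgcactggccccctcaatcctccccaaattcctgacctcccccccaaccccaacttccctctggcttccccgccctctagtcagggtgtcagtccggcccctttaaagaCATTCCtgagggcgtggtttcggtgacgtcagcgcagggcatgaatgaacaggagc
Sema3a: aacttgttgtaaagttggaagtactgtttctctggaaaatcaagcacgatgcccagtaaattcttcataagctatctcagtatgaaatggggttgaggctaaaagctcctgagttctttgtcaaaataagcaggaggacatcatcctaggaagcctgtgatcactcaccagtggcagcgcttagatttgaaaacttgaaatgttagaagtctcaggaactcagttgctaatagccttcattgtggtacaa
Robo1: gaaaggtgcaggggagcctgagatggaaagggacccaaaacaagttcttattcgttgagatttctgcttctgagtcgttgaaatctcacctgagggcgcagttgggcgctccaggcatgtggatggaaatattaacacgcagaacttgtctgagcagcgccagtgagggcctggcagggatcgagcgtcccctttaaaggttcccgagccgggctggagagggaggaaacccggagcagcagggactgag
Plxnd1: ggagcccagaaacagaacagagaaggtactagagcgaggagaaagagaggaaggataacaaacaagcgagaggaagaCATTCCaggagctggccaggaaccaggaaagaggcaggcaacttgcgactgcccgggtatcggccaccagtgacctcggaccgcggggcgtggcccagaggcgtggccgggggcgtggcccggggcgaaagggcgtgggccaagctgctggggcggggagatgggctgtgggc

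The window of *Epha2*, which rose, held the word on the other strand 243 and 56 bases before the start. That of *Plxnd1*, which fell, held the word on the other strand 173 bases before the start. The *Sema3a* and *Robo1* windows held none. Over both strands, GGAATG was found in 7 of the 74 RefSeq promoters of 58 guidance genes (*Efnb2*, *Epha1*, *Epha2*, *Epha3*, *Plxnb1*, *Plxnd1* and *Sema4a*) and in 12.6% of all 32851 promoters. The interferon-stimulated response element GAAANNGAAA occurred in 2 of the 74 (*Plxnc1* and *Sema6b*) and in 2.98% of all promoters, and the AP-1 site TGANTCA in 3 (*Sema4c*, *Sema4d* and *Sema6b*) and in 6.75%. None of these words is contained in another, and a match describes the sequence alone.

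To follow the pathways inside the cell, 72 genes for co-receptors and intracellular partners of the guidance receptors were examined. Of 63 that could be tested, 15 (23.8%) rose and 22 (34.9%) fell, with a median log2 fold change of -0.04. These shares, and the counts by group, stand beside 28.4% higher and 29.6% lower over all tested loci. The count of 15 fell to 8 without Scr replicate 2 and to 9 without Yme1l siRNA replicate 1. By group, 7 rose and 8 fell among 22 semaphorin and plexin partners, 4 rose and 7 fell among 19 Eph and ephrin partners, 1 rose and 5 fell among 11 SLIT and ROBO partners, and 3 rose and 2 fell among 11 netrin and UNC5 partners.

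Within the semaphorin group, *Rnd1*, a small GTPase that binds plexins, had 26.7, 28.5 and 34.3 CPM in Scr cultures and 74.4, 72.9 and 75.1 CPM in Yme1l siRNA cultures. It rose by 1.31 on the log2 scale (SE 0.10, adjusted p = 1.89e-05). *Mical1*, an enzyme that oxidizes actin downstream of plexins, was at 74.5, 74.7 and 69.4 CPM in Scr and at 23.6, 30.4 and 22.5 CPM after knockdown. The groups of both genes were far apart, and *Mical1* fell by 1.51 (SE 0.11, adjusted p = 2.04e-05). Exons of *Mical1* overlap those of *Smpd2* on the other strand.

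Among the SLIT and ROBO partners, *Srgap1*, a GTPase-activating protein that binds ROBO1, fell. It had 36.1, 37.1 and 36.3 CPM in Scr cultures and 13.0, 12.2 and 14.0 CPM in Yme1l siRNA cultures, with a log2 fold change of -1.48 (SE 0.08, adjusted p = 7.21e-06). *Enah*, an actin regulator, fell from 156, 147 and 130 CPM to 91.8, 79.6 and 111 CPM (-0.61, SE 0.13, adjusted p = 0.00313). For neither gene did the groups overlap.

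Among the Eph and ephrin partners, *Rgs3*, which binds B-type ephrins and acts on G proteins, had 49.2, 48.0 and 53.9 CPM in Scr cultures and 22.4, 25.1 and 23.3 CPM in Yme1l siRNA cultures. *Rasa1*, a RAS GTPase-activating protein recruited by Eph receptors, had 68.6, 68.4 and 78.0 CPM in Scr and 36.0, 34.0 and 43.6 CPM after knockdown. Both fell without overlap, by 1.09 (SE 0.08, adjusted p = 1.72e-05) and 0.92 (SE 0.10, adjusted p = 0.000143) on the log2 scale. *Flrt2*, a membrane ligand of UNC5 receptors, rose from 11.2, 12.2 and 10.2 CPM to 27.5, 20.8 and 25.6 CPM (1.14, SE 0.12, adjusted p = 0.000108). *Ablim1*, an actin-binding protein of the netrin pathway, fell from 59.3, 56.4 and 54.5 CPM to 44.7, 47.3 and 38.4 CPM (-0.38, SE 0.09, adjusted p = 0.00529).

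Counting limits touch some of the genes above. The exons of 10 tested guidance genes overlap a gene on the other strand (*Sema4c*, *Unc5a*, *Unc5c*, *Efna3*, *Efna4*, *Ephb4*, *Plxna1*, *Plxna4*, *Plxnb1* and *Epha1*), and the sources used here do not say whether the strand was used in counting, so their counts are uncertain. On the same strand, exons overlap for *Plxnc1* with *Gm48718* (115 bases), *Sema4a* with *Mir7011* (73 bases) and *Nrp1* with *Mir1903* (80 bases). Reads from these bases could have been assigned to either gene.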

How the data were processed

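RNA was isolated from 3 Scr and 3 Yme1l siRNA cultures of WT MEFs, and poly(A)-selected stranded libraries were sequenced from both ends. Per the labels and methods, the authors aligned reads to mm10 with HISAT2 2.0.4, assembled transcripts with StringTie 1.3.3 and compared groups with Cuffdiff 2.2.1. The authors deposited raw counts per locus without normalization, and these were used here. The counting program and its use of strand are not given in the sources used here. A further deposited table holds group levels, fold changes and p-values of the authors' own comparison and was not used. Groups came from the sample labels.

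Counts were scaled by TMM and tested with the quasi-likelihood test of edgeR 4.0.16 in R 4.3.3, without covariates. Loci passing filterByExpr (minimum count 10, minimum total 15) were tested, and the Benjamini-Hochberg adjustment ran over all of them, with a threshold of 0.05. The standard error is the log2 fold change divided by the square root of F. Coordinates and exon lengths came from GENCODE M21 (mm10), near-identical stretches (at least 200 bases, 95% identity) from BLAST, and promoters from RefSeq, matched by symbol for 58 of 67 gene names. Counts of libraries within a group were further apart than counting error allows (chi-square per degree of freedom 9.99 to 73.8), and the labels give no pairing between groups. The p-values cover the spread between cultures of WT MEFs.

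Values in every library were given for called genes with a log2 fold change of at least 1 in size, for the called ligand and receptor with the smallest adjusted p in each pathway, for the member with the highest level per length in each family, and for the 2 partner genes with the smallest adjusted p in each partner group. The members and lists were chosen with earlier results of these data known, and 1 marker list is not reported here. Alternatives were DESeq2 1.42.0 and its size factors, other filters, removal of mtDNA loci, a replicate block and leaving out each library. The fit was tested on simulated data in which few loci changed, evenly up and down. Far more loci were called here, so that simulation does not cover the scaling or error rates under such broad change.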

Additional observations from a re-analysis of the deposited data

How the results depend on the processing

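Over all alternatives, 14 to 18 guidance genes rose and 21 to 25 fell, and no called gene reversed its direction. The median log2 fold change of the guidance genes was -0.18 when loci averaging under 50 counts were removed, against -0.12 in the main analysis, a setting that kept 45 guidance genes. With 1 library left out, it ranged from -0.15 to -0.07, the number of partner genes that rose from 8 to 16, and the number that fell from 21 to 25. Same-numbered cultures deviated together only weakly (correlations 0.091, 0.167 and 0.255) and share no stated origin, and 5 of the 6 libraries correlated best with the library of their own number. With the replicate number as a replicate block, 17 guidance genes rose and 24 fell, and *Sema3d* (adjusted p = 0.0616) was the guidance gene whose call changed. *Sema3d* was also lost with DESeq2 (adjusted p = 0.103) and without a filter on low counts (0.0995). *Plxnc1*, *Unc5a* and *Epha8* rest on at most 36 counts in a library.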
